A study of Homo sapiens with 4 samples.

Results

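The TNF superfamily of ligands, their receptors and the adaptor proteins of these receptors was followed in SUM149PT cells, a line established from an inflammatory breast cancer, after knockdown of EMP2, which encodes epithelial membrane protein 2. Members were taken by gene symbol: TNFSF and TNFRSF numbers, the members with names of their own (TNF, LTA, LTB, LTBR, FAS, FASLG, CD27, CD40, CD40LG, CD70, NGFR, EDAR, EDA, EDA2R and RELT), the TRAFs, RIPK1, TRADD and FADD. This gave 57 of the 25343 genes of the table, namely 18 ligands, 8 receptors with a death domain, 4 decoy receptors, 17 receptors without a death domain and 10 adaptors. A total of 33 members reached 1 CPM (reads scaled to library size) in at least 2 of the 4 libraries and were tested.

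The 2 control libraries came from cells stably infected with a lentiviral vector control and the 2 knockdown libraries from cells stably infected with a lentiviral shRNA, a hairpin transcript processed into a small RNA, against EMP2. All 4 libraries are thus of infected cells, grown in one medium with serum, insulin, hydrocortisone and antibiotics. The titles call the control a vector control and its source names Shctrl, names that do not settle whether it carried a hairpin. Both knockdown libraries carry the same construct name, so an effect of that hairpin and an effect of EMP2 cannot be told apart. Nothing in the labels separates the cultures behind the libraries of a group; p-values therefore refer to the scatter among these 4 samples only, and this scatter may be technical. EMP2 measured 126 and 125 CPM in control libraries and 23.0 and 22.6 CPM after knockdown, 18.2% of the control mean (log2 change -2.43, SE 0.051, limma adjusted p = 3.7e-15).

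Ligands of the family are mostly trimeric membrane proteins, some of which are cut off and act at a distance. Receptors with a death domain can recruit FADD or TRADD and lead to caspase activation and cell death, or to NF-kB. Receptors without one bind TRAF proteins, which pass the signal to NF-kB and MAP kinases. Decoy receptors bind ligand without passing a full signal. In epithelial tumour cells the family is known both for death signalling, as through TRAIL and its receptors, and for inflammatory signalling through NF-kB.

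TNFSF15, TNFRSF21 and TNFRSF14 were the members that passed the test with a mean at least 2-fold higher, and their promoter windows are shown to give the genes a place in the genome. The windows run from 250 bases before to 50 bases after a transcript start in RefSeq (GRCh38.p14), 5′ to 3′ on the gene's strand; 39 of the 57 members had an entry. TNFRSF21 is at chr6:47309856-47310155 (minus strand), TNFRSF14 at chr1:2556121-2556420 (plus strand) and TNFSF15 at chr9:114792481-114792780 (minus strand). The TNFSF15 window belongs to a start 13596 bases inside the 5′ end of the gene as GENCODE 29 gives it. This start is 422 bases from the nearest transcript start there. The TNFRSF14 start lies 732 bases inside the 5′ end of its gene and 5 bases from such a start, so its window lies within the gene. Values summed per gene do not tell these starts apart. Capitals mark matches, on either strand, to NF-kB (GGG and CC with 5 bases of any kind between them), AP-1 (TGANTCA), Sp1 (GGGCGG) or TATAAA.
TNFRSF21: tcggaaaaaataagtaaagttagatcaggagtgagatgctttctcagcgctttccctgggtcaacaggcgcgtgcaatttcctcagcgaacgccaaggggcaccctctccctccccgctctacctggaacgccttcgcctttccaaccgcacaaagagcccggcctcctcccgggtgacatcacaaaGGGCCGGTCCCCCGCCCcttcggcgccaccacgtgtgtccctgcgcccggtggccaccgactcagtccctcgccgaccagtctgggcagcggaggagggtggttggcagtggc
TNFRSF14: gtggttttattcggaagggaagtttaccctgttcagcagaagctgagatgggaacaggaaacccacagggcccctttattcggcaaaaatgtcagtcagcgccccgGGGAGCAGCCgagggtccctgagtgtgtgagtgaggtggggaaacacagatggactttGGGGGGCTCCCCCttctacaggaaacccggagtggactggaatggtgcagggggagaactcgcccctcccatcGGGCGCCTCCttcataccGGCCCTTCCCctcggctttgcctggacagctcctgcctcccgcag
TNFSF15: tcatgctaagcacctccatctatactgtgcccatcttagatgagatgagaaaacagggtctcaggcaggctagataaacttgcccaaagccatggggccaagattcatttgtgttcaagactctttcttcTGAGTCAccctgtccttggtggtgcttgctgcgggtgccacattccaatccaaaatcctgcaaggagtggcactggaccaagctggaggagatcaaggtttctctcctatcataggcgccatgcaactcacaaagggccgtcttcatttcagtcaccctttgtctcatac
The TNFRSF21 window held overlapping NF-kB matches and a Sp1 match in the 63 bases before the start, the TNFRSF14 window held NF-kB matches that overlap one another in part, and the TNFSF15 window held 1 AP-1 match. Of the 35116 promoter windows in the table, 58.7% held the NF-kB letters, 45.0% the Sp1 letters, 11.5% TATAAA and 7.71% the AP-1 letters. A match is a description of the letters and no evidence of binding.

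In the knockdown libraries 6 of the 33 tested members were higher and 3 lower than in controls (limma, called at an adjusted p under 0.05). This was 27.3%, against 33.4% of the 13661 genes tested. The share called in the family was thus not above that of all genes. The median log2 change of the tested members was 0.026 and that of all genes tested 0.0037. Of the tested members 3, TNFRSF11B, TNFRSF14 and TNFRSF11A, had passed the filter through the libraries of 1 group alone, which favours a difference; without them 7 of 30 were called. On the recovered reads edgeR called 6 members higher and 4 lower, where 15.6% and 17.4% of all genes were called and 33% in either direction. DESeq2 called 3 higher and 2 lower, against 7.27% and 8.65% of all genes and 15.9% in either direction. Limma without the abundance trend called 4 higher and 1 lower, against 6.71% and 7.44% of all genes and 14.1% in either direction. The filter was close to CD70, which was inside it at 0.899, 1.36, 1.51 and 0.974 CPM (controls first), and to TNF, outside it at 0.761, 0.757, 1.08 and 0.749 CPM.

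**Figure D1:**
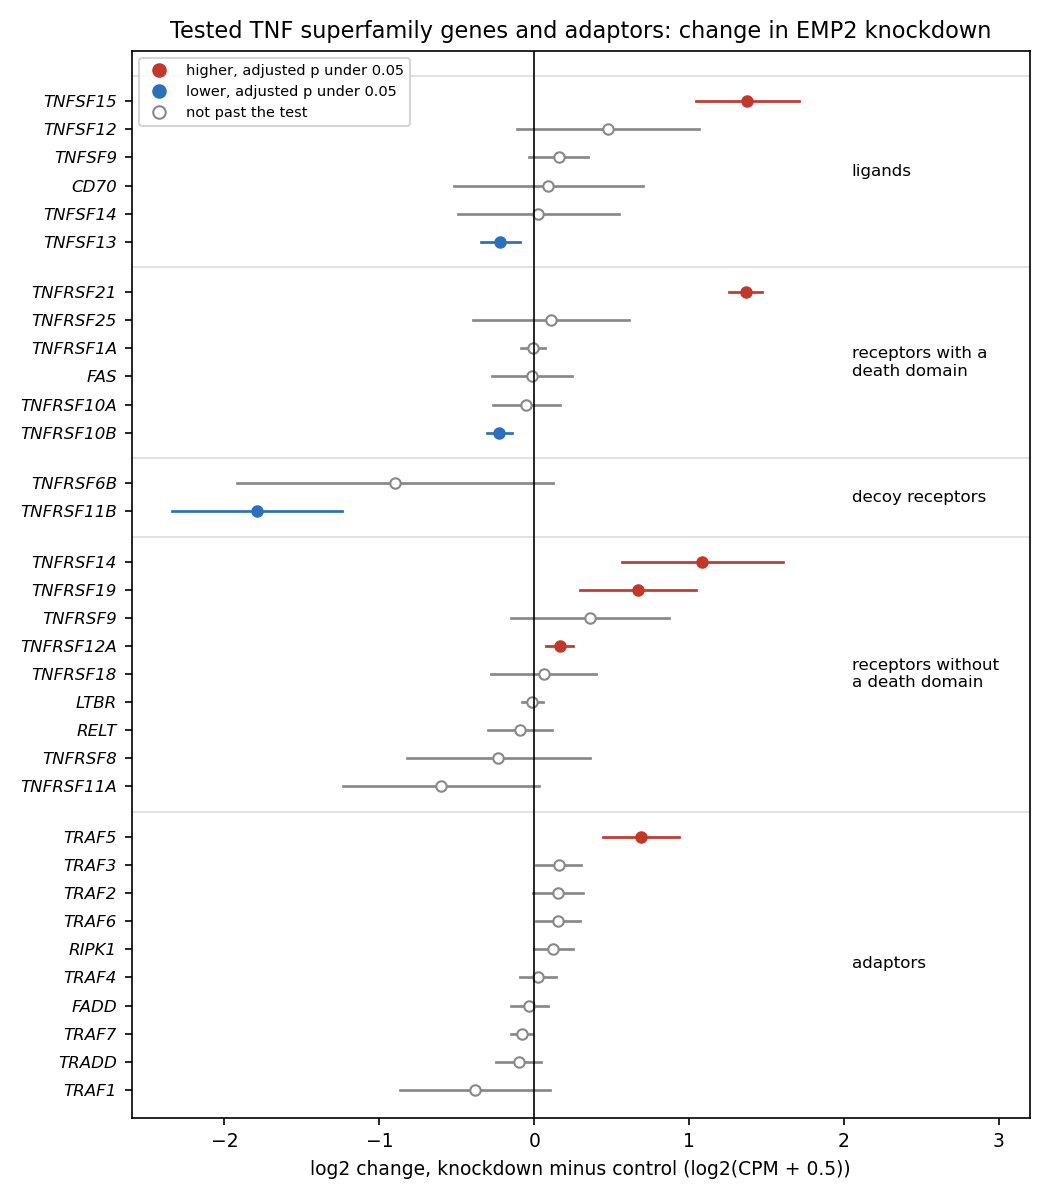
Log2 change (knockdown minus control, log2(CPM + 0.5) scale) of the 33 tested members by role, with the 95% confidence interval of the limma fit. Red points are the 6 members called higher, blue points the 3 called lower and open points those that did not pass; most intervals include 0, and TNFSF15, TNFRSF21 and TNFRSF11B stand farthest from 0 among the called.

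Among the 6 tested ligands TNFSF15 rose and TNFSF13 fell (33.3% called, against 33.4% of all genes). TNFSF15 (TL1A), a ligand of the death receptor TNFRSF25, measured 3.25 and 4.39 CPM in control libraries and 10.7 and 10.6 CPM after knockdown. Both knockdown libraries were above both controls, from 47 and 58 reads to 149 and 141 reads. The mean was 2.78-fold higher (3.82 ± 0.807 to 10.6 ± 0.0903 CPM, SD, n = 2; log2 change 1.38, SE 0.16, 95% confidence interval 1.05 to 1.71, limma adjusted p = 3.22e-06). In GRCh38, the build of all gene positions given here, TNFSF15 covers 114784635 to 114806126 of chromosome 9 (minus strand). TNFSF13 (APRIL), a ligand known for supporting B cells and plasma cells, measured 60.04 and 57.3 CPM in control libraries and 47.5 and 53.2 CPM after knockdown. Its groups did not overlap, and the fall was small (log2 change -0.22, SE 0.059, limma adjusted p = 0.00834); it no longer passed with DESeq2 (adjusted p = 0.116), limma without trend (0.138), or without control replicate 1 (0.0533) or knockdown replicate 1 (0.105). TNFSF13 and TNFSF12 each share exons with the readthrough gene TNFSF12-TNFSF13, which was listed at 1.04, 0.606, 0 and 0.974 CPM (controls first).

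The other 4 tested ligands did not pass. The TWEAK gene TNFSF12 was at a log2 change of 0.48 (95% confidence interval -0.11 to 1.07), the 4-1BB ligand gene TNFSF9 at 0.16 (-0.032 to 0.35), CD70 at 0.09 (-0.52 to 0.70) and the LIGHT gene TNFSF14 at 0.03 (-0.49 to 0.55). TNFSF12 had 24, 11, 28 and 23 reads, beside 15, 8, 0 and 13 for the readthrough gene TNFSF12-TNFSF13 (controls first). The part of the shared exons in its value was not tested. The remaining 12 ligands were below the filter. TNF, the founding cytokine of the family, had 11 and 10 reads in the controls and 15 and 10 in the knockdowns, and TNFSF10, which encodes TRAIL, had 10 and 10 against 8 and 7. FASLG, CD40LG, TNFSF11 and TNFSF18 were listed at 0 in every library, which allows up to 3 reads or 0.208 to 0.227 CPM per library. Depth therefore limits what can be said about most ligands.

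Of the 6 tested receptors with a death domain 1 rose and 1 fell (33.3% called, against 33.4% of all genes). TNFRSF21 (DR6), a death receptor known for its part in neuronal and immune cell death, had the lowest adjusted p of the family. It measured 36.2 and 38.4 CPM in control libraries and 97.6 and 96.1 CPM after knockdown, a gap far wider than the spread within either group. Its mean was 2.59-fold higher (37.3 ± 1.52 to 96.8 ± 1.03 CPM, SD, n = 2; log2 change 1.36, SE 0.050, 95% confidence interval 1.26 to 1.47, limma adjusted p = 3.29e-12). It covers 47231532 to 47309905 of chromosome 6 (minus strand).

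TNFRSF10B (DR5), a death receptor of TRAIL, moved the other way. It measured 112.1 and 112.4 CPM in control libraries and 94.9 and 97.0 CPM after knockdown, and the groups did not overlap. The fall was small, to 85.5% of the control mean (log2 change -0.22, SE 0.039, limma adjusted p = 0.000274), and it narrowly missed the threshold with limma without trend (adjusted p = 0.0515). RHOBTB2, whose exons overlap those of TNFRSF10B on the other strand, was at a log2 change of -0.09 without passing the test. TNFRSF10A (DR4), the other death receptor of TRAIL, was at 15.8 and 16.7 CPM in control libraries and 17.1 and 14.3 CPM after knockdown, so that the groups overlapped (log2 change -0.051, 95% confidence interval -0.27 to 0.17). The TRAIL receptors are close relatives, and the submitters' rule for reads that match several genes is not known from the labels.

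The remaining tested death receptors did not pass the test. TNFRSF1A, the main receptor of TNF, had 188 and 181 CPM in control libraries and 178 and 189 CPM after knockdown; its interval was narrow, from -0.082 to 0.072 on the log2 scale. FAS was at 9.55 and 8.78 against 8.75 and 9.36 CPM (log2 change -0.016, 95% confidence interval -0.28 to 0.24). TNFRSF25, the receptor of TNFSF15, was at 1.52 and 2.12 against 1.94 and 2.02 CPM (log2 change 0.11, 95% confidence interval -0.40 to 0.61), with 22 to 28 reads a library. Exons of TNFRSF25 overlap those of PLEKHG5 on the same strand, a gene with 107 to 112 reads a library. NGFR and EDAR were below the filter with at most 5 reads a library.

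The decoy receptor TNFRSF11B fell. Osteoprotegerin, its product, is a secreted receptor that binds RANKL and TRAIL. TNFRSF11B measured 4.57 and 2.88 CPM in control libraries (66 and 38 reads) and 0.646 and 0.749 CPM after knockdown (9 and 10 reads). The controls differed from each other, yet both were above both knockdown libraries. TNFRSF11B passed the filter through the control libraries alone, which favours a fall. The control mean was 5.34-fold the knockdown mean (log2 change -1.79, SE 0.26, 95% confidence interval -2.34 to -1.24, limma adjusted p = 4.31e-05), and with so few knockdown reads the size depends on the pseudocount, from -2.23 at 0.1 CPM to -1.45 at 1 CPM. Its position is 118923557 to 118952200 of chromosome 8 (minus strand).

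TNFRSF6B (DcR3), a soluble decoy for TNFSF15, TNFSF14 and FASLG, varied between libraries of 1 group. It had 30 and 10 reads in the controls and 19 and 0 in the knockdowns (log2 change -0.90, 95% confidence interval -1.92 to 0.12, limma adjusted p = 0.17), and it passed without control replicate 2 (adjusted p = 0.0245) and without knockdown replicate 1 (0.000517). Without control replicate 1 its log2 change was -0.38 (adjusted p = 0.639), and without knockdown replicate 2 it was 0.05 (0.94), with the opposite sign. It shares its exons with the readthrough gene RTEL1-TNFRSF6B, which was listed at 0, 9.77, 2.44 and 10.7 CPM (controls first), high where TNFRSF6B was low, and the part of this in the result was not tested. The TRAIL decoys TNFRSF10C and TNFRSF10D were below the filter with at most 9 and 2 reads a library.

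**Figure D2:**
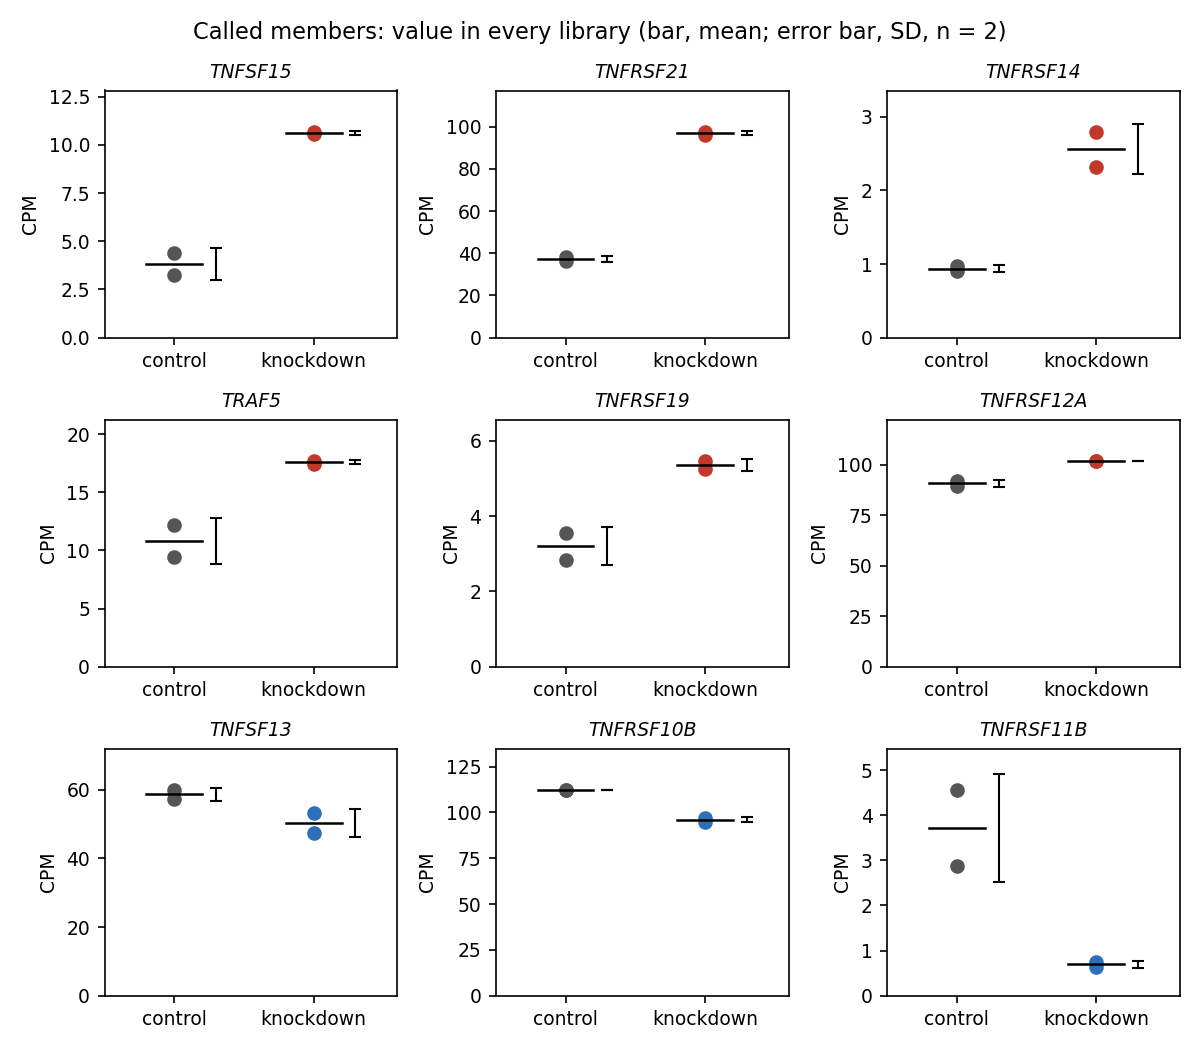
CPM of the 9 called members in every library, with the group mean (bar) and its SD (n = 2); each panel has its own linear axis from 0. In each panel both knockdown libraries lie on the same side of both controls, by a wide gap for TNFSF15 and TNFRSF21 and a narrow one for TNFRSF12A, TNFSF13 and TNFRSF10B.

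Of the 9 tested receptors without a death domain 3 rose and 0 fell (33.3% called, against 33.4% of all genes). TNFRSF14 (HVEM), a receptor of LIGHT and of the inhibitory lymphocyte receptor BTLA, measured 0.968 and 0.909 CPM in control libraries (14 and 12 reads) and 2.80 and 2.32 CPM after knockdown (39 and 31 reads). Its libraries separated by group, but it passed the filter through the knockdown libraries alone. The mean was 2.73-fold higher (log2 change 1.08, SE 0.25, limma adjusted p = 0.00253; DESeq2 adjusted p = 0.0532). TNFRSF19 (TROY), an orphan receptor known from hair follicles and the nervous system, measured 2.84 and 3.56 CPM in control libraries and 5.24 and 5.47 CPM after knockdown. Its groups did not overlap, with a mean 1.67-fold higher (log2 change 0.67, SE 0.18, limma adjusted p = 0.00746), and it did not pass with DESeq2 (adjusted p = 0.138) or without control replicate 1 (0.0673). TNFRSF14 lies on the plus strand of chromosome 1 from 2555639 to 2565382 and TNFRSF19 on the plus strand of chromosome 13 from 23570370 to 23676104.

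TNFRSF12A (Fn14), the receptor of TWEAK and a gene known to respond to growth factors and injury, measured 92.1 and 89.4 CPM in control libraries and 102 and 102 CPM after knockdown. The rise was small but wider than the spread within groups (log2 change 0.17, SE 0.041, limma adjusted p = 0.00456); it did not pass with DESeq2 (adjusted p = 0.122) or limma without trend (0.0893). LTBR, the lymphotoxin beta receptor, had 230.3 and 239 CPM in control libraries and 231 and 234 CPM after knockdown, with an interval from -0.078 to 0.054 on the log2 scale. RELT, TNFRSF18 (GITR), TNFRSF9 (4-1BB), TNFRSF8 (CD30) and TNFRSF11A (RANK) did not pass; their log2 changes ran from -0.60 for TNFRSF11A (95% confidence interval -1.23 to 0.030) to 0.36 for TNFRSF9. The other 8, among them CD27, CD40, TNFRSF4 (OX40), TNFRSF1B and the B cell receptors TNFRSF13B, TNFRSF13C and TNFRSF17, were below the filter with at most 8 reads a library.

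Of the 10 adaptors, which were all tested, TRAF5 rose and the other 9 did not pass (10% called, against 33.4% of all genes). TRAF5, which links several TRAF-binding receptors to NF-kB, measured 9.41 and 12.2 CPM in control libraries and 17.7 and 17.5 CPM after knockdown. Both knockdown libraries were above both controls, which differed from each other more than the knockdowns did. The mean was 1.63-fold higher (10.8 ± 1.97 to 17.6 ± 0.189 CPM, SD, n = 2; log2 change 0.69, SE 0.12, 95% confidence interval 0.44 to 0.94, limma adjusted p = 0.000214), and it narrowly missed the threshold with limma without trend (adjusted p = 0.0547). TRAF5 lies on the plus strand of chromosome 1 from 211326615 to 211374946.

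None of the other TRAFs passed the test. TRAF2, TRAF3 and TRAF6, the ubiquitin ligases and regulators nearest the NF-kB kinases, were at log2 changes of 0.16, 0.16 and 0.15 with limma adjusted p values of 0.132, 0.0902 and 0.085. TRAF7, the most abundant TRAF per length, was at -0.082 (adjusted p = 0.0676; edgeR adjusted p = 0.0393). TRAF1, itself an NF-kB target, was at -0.38 (95% confidence interval -0.87 to 0.099) and TRAF4 at 0.026. The death-domain adaptors FADD and TRADD were at -0.033 (-0.15 to 0.087) and -0.10 (-0.25 to 0.046), and the kinase RIPK1 was at 0.12 (-0.0037 to 0.25). Over the whole family 19 of the 33 tested members had groups that did not overlap, against 65.6% of all genes tested.

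Levels were compared between genes as CPM per kb of exon (all exons of the GENCODE 29 basic transcripts, which may differ from the submitters' annotation). In the controls LTBR was highest at 96.6 ± 2.41 CPM per kb (SD, n = 2), followed by TNFRSF12A at 65.1 ± 1.34, TNFRSF1A at 61.9 ± 1.59, TRAF7 at 47.1 ± 0.700, FADD at 29.5 ± 1.197 and TNFRSF10B at 27.1 ± 0.0545. The control libraries of neighbours among these 6 did not overlap. The highest ligand was TNFSF13 at 25.8 ± 0.867, followed by TNFSF9 at 10.4 ± 0.779. TNFRSF21, at 10.4 ± 0.422 in the controls, overlapped in level with TRAF2 and TNFSF9 there and reached 26.9 ± 0.288 CPM per kb in the knockdown, beside 23.1 ± 0.356 for TNFRSF10B. TNFSF15 went from 0.484 ± 0.102 to 1.35 ± 0.0114 CPM per kb and stayed a lowly expressed gene in both groups.

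**Figure D3:**
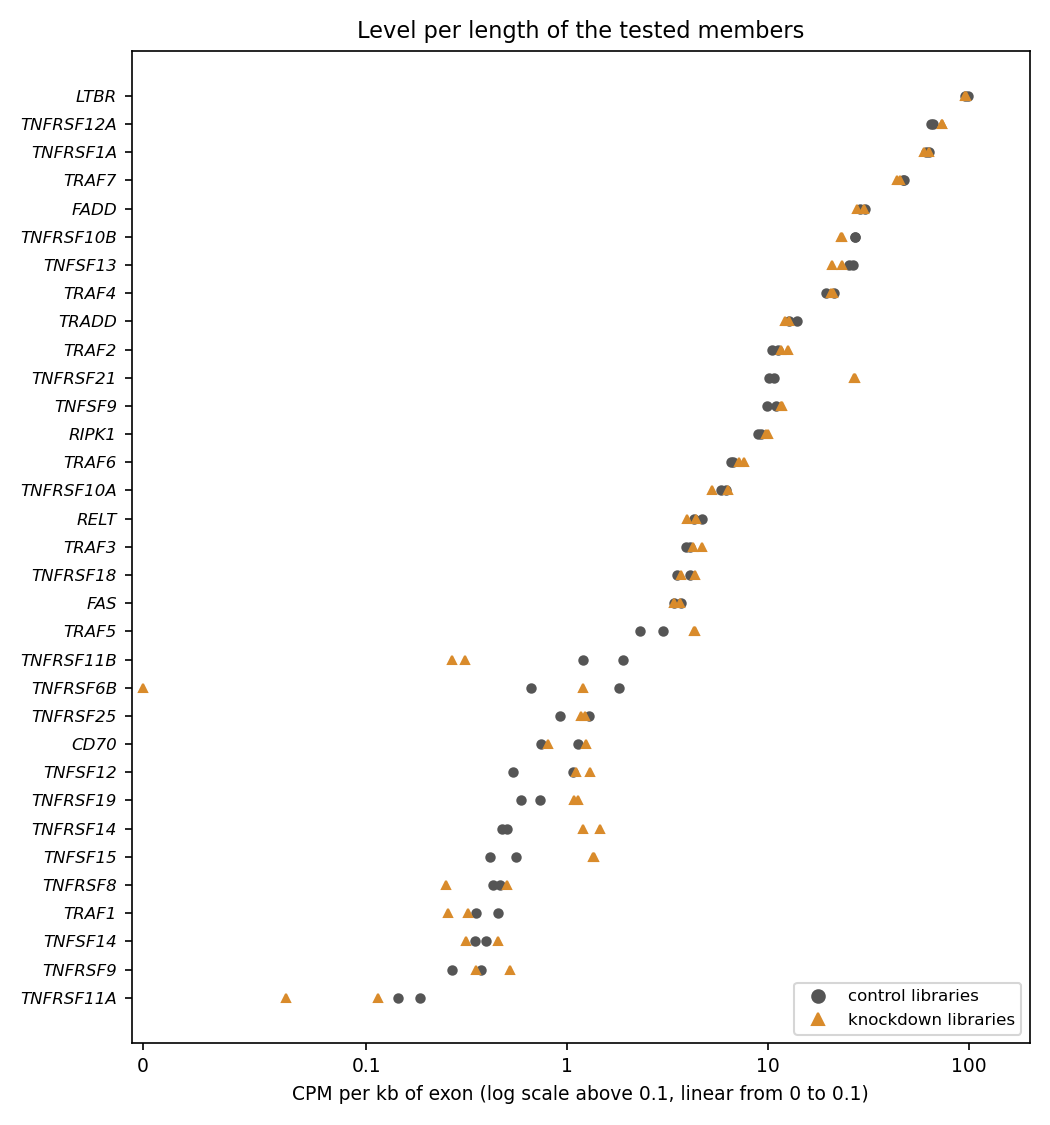
Level of the 33 tested members in CPM per kb of exon (log scale above 0.1, linear from 0 to 0.1), 1 point per library, ordered by the control mean. LTBR, TNFRSF12A and TNFRSF1A lead in both groups, while TNFRSF21, at 10.4 CPM per kb in the controls, sits at 26.9 in the knockdowns.

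Ligands were set beside their receptors. Of the 6 tested ligands 4 had a tested receptor. TNFSF15 met TNFRSF25 and the decoy TNFRSF6B, neither of which passed while TNFSF15 rose. TNFSF14 met TNFRSF14, which rose but had passed the filter through the knockdown libraries alone, and LTBR and TNFRSF6B, which did not pass. TNFSF12 met TNFRSF12A, which rose by a small amount, and TNFSF9 met TNFRSF9, which did not pass. The calls of TNFRSF14 and TNFRSF12A were lost with DESeq2, and that of TNFRSF12A also with limma without trend. The receptors of TNFSF13 on B cells, TNFRSF13B and TNFRSF17, had at most 1 read a library, and CD27, the receptor of CD70, had at most 6. In the other direction TNFRSF10B and TNFRSF1A were abundant while their ligand genes TNFSF10 and TNF stayed at or below 1.08 CPM.

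Genes that carry the signal on from these receptors were counted from lists of 61 genes that are no member, of which 57 were tested. Of these 12 were higher and 13 lower (43.9%, against 33.4% of all genes), with a median log2 change of -0.0059. With DESeq2 6 of the 57 were higher and 4 lower, against 7.27% and 8.65% of all genes. Limma without trend gave 7 higher and 6 lower, against 6.71% and 7.44%. In the list for the death-inducing complex 3 of 8 tested genes fell and 0 rose (of all genes 16.8% fell and 16.6% rose). This list also holds death genes outside the complex itself, MLKL and DAP3 among them, so the count does not describe the complex alone. CFLAR, the inhibitor c-FLIP of caspase 8 activation, was at 108.9 and 108.7 CPM in control libraries and 97.1 and 94.5 CPM after knockdown (log2 change -0.18, limma adjusted p = 0.00183). MLKL, the executor of necroptosis, fell by 0.42 and DAP3, a mitochondrial ribosomal protein also tied to death signalling, by 0.17 on the log2 scale. None of these 3 calls held with DESeq2, and those of CFLAR (adjusted p = 0.0744) and DAP3 (0.117) were also lost with limma without trend. MLKL also missed the threshold without control replicate 2 and DAP3 without knockdown replicate 2. CASP8 itself was at 0.07 without passing the test, and RIPK3, the partner of MLKL, was listed at 0 in every library.

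In the receptor complex and its ubiquitin control 4 of 14 rose and 0 fell (of all genes 16.6% rose and 16.8% fell). The ubiquitin ligases BIRC2 and BIRC3 (cIAP1 and cIAP2), which bind TRAF2 and restrain death signalling, rose most. BIRC3 went from 22.4 and 19.5 CPM to 36.8 and 38.3 CPM (log2 change 0.83, SE 0.078, limma adjusted p = 3.79e-07), and BIRC2 from 88.4 and 82.2 CPM to 113 and 122 CPM (log2 change 0.46, SE 0.047, limma adjusted p = 1.12e-06). Both genes separated clearly by group. TAX1BP1 and ITCH, partners of the inhibitor TNFAIP3, rose by 0.18 and 0.14, whereas TNFAIP3 was at -0.0059 without passing the test. The call of ITCH was lost without control replicate 1 (adjusted p = 0.0694), with DESeq2 (0.135) and with limma without trend (0.131), and that of TAX1BP1 with limma without trend (0.12).

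Of 12 kinases and kinase partners 3 rose and 2 fell (41.7% called, against 33.4% of all genes), each by a small amount. MAP3K14 (NIK), the kinase of the alternative NF-kB pathway, rose by 0.22, and TAB2, a ubiquitin-binding partner of TAK1, by 0.12 on the log2 scale; MAP3K5 (ASK1), a stress kinase, fell by 0.20 and IKBKB, the main kinase of the inhibitor IkB, by 0.17. These calls were fragile: none of these 4 held with DESeq2 or with limma without trend (adjusted p 0.0604 to 0.179 without trend). TAB2, MAP3K14 and IKBKB were also lost when every gene above 0 was tested (limma adjusted p 0.0549 to 0.0606). TAB2 was lost without control replicate 1 or knockdown replicate 2, and MAP3K14 without control replicate 1 or knockdown replicate 1. IKBKB was lost without control replicate 2 or knockdown replicate 1, and with quantile scaling (limma adjusted p = 0.0572).

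NF-kB subunits and inhibitors split, with 2 of 9 higher and 2 lower (44.4% called, against 33.4% of all genes). NFKB2, the precursor subunit of the alternative pathway, went from 25.7 and 24.9 CPM to 33.0 and 34.5 CPM (log2 change 0.41, limma adjusted p = 0.000214). NFKBIA, the inhibitor that is itself an NF-kB target, went from 148 and 144 CPM to 110.3 and 112 CPM (log2 change -0.39, limma adjusted p = 3.74e-07). NFKBIE rose by 0.38 and NFKB1 fell by 0.16, neither called with DESeq2. NFKB1 was also lost with limma without trend (adjusted p = 0.106) and with quantile scaling (limma adjusted p = 0.0512). NFKBIE was lost without control replicate 1 (adjusted p = 0.0698) or knockdown replicate 1 (0.0667), and NFKB1 without control replicate 1 (0.106), control replicate 2 (0.0641) or knockdown replicate 2 (0.144). Of 4 sheddase genes, which serve to release ligands and receptors from the membrane, 1 was called (25%, against 33.4% of all genes). RHBDF1, a partner of the TNF convertase ADAM17, fell by 0.22, and ADAM17 was at -0.083 without passing the test. The call of RHBDF1 was lost with DESeq2 (adjusted p = 0.129) and with limma without trend (0.0567).

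NF-kB target genes went both ways, with 3 of 10 higher and 5 lower (80% called, against 33.4% of all genes) and a median of -0.33. SOD2, the mitochondrial superoxide dismutase, went from 117.5 and 117.0 CPM to 89.8 and 82.6 CPM (log2 change -0.44), and the chemokine CXCL1 from 37.6 and 34.2 CPM to 19.9 and 22.4 CPM (log2 change -0.75). TNFAIP2, a TNF-induced gene, fell by 0.27. The adhesion molecule ICAM1 rose from 26.8 and 23.8 CPM to 44.2 and 37.2 CPM (log2 change 0.67). Limma adjusted p values of these 4 lay between 8.41e-07 and 1.06e-05; TNFAIP2 lost its call with limma without trend (0.0576).

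**Figure D4:**
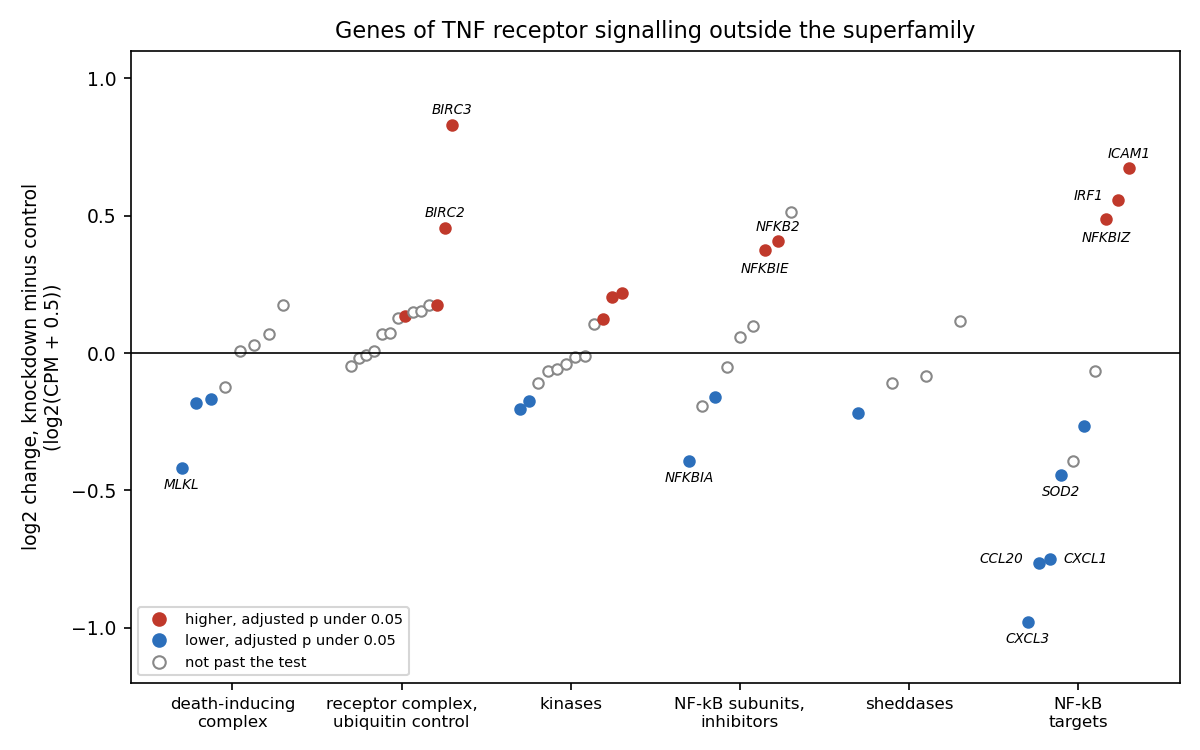
Log2 change (knockdown minus control, log2(CPM + 0.5) scale) of the 57 tested signalling and target genes outside the family, grouped by list; filled points passed the test and larger called changes are named. BIRC3 and BIRC2 lead the receptor complex, and the NF-kB targets lie on both sides of 0.

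The 4 libraries held 13360907 to 14647053 reads, and no library stood apart (Pearson correlation of log2 values across genes 0.994 within each group). Epithelial markers summed to 5940 to 5986 CPM in control libraries and 6365 to 6438 CPM after knockdown, with all 9 above the filter. Of these 5 were called higher, namely CDH1, KRT17, KRT6A, KRT8 and KRT18 (log2 changes from 0.39 for CDH1 to 0.19 for KRT18). KRT14 (log2 change -1.07) and KRT19 (-0.17) were the 2 called lower. This was 77.8% called, against 33.4% of all genes. Of 14 leukocyte markers, which bear on a family best known from immune cells, CD3D, CD3E, MS4A1 and NKG7 were among those listed at 0 in every library and PTPRC, the general leukocyte marker, was at 0.0692 and 0.0757 CPM in control and 0.287 and 0.225 CPM in knockdown libraries. The 6 above the filter were CD68, CSF1R, CD14, LYZ, CD8A and GNLY. Their control means were 83.0, 10.6, 4.30, 3.28, 1.74 and 0.860 CPM, and CD68 alone was called. The summed level of all 14 was 101 to 107 CPM in control libraries and 81.1 to 84.5 CPM after knockdown. Most of it was CD68, which fell by 0.44 on the log2 scale. Of 8 fibroblast markers COL1A2 was listed at 0 and 3 were tested. FAP was higher, from 16.3 and 15.5 CPM to 33.6 and 36.0 CPM, and DCN lower (log2 change -0.79), and the summed level was 130.1 to 131 CPM in control and 121 to 124 CPM in knockdown libraries. Of the endothelial markers 1 of 5 endothelial markers, PECAM1, was above the filter and did not pass. The part of these markers in the family's values was not tested.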

How the data were processed

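RNA of 4 libraries was depleted of ribosomal RNA and sequenced as single reads of 50 bases, per the labels' protocols. bcl2fastq 2.17, STAR, DESeq2 and GRCh38 are named, per the submitters' processing notes; the sources used here do not give the read counter, annotation or strand setting. The authors deposited 1 table of TMM-normalized CPM, library-size-scaled reads adjusted so as to set the bulk of genes equal; a shift of most mRNAs would be removed by it. Whole reads were recovered: 100% of values were multiples of the smallest value of their library to within 0.1 read, 1 read being worth 0.0692 to 0.0757 CPM.

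Values were log2-transformed with a pseudocount of 0.5 CPM and compared by group with limma 3.58.1 in R 4.3.3 (two-sided, variance trend by abundance). P-values were Benjamini-Hochberg adjusted over 13661 genes that reached 1 CPM in 2 or more libraries, with calls at an adjusted p under 0.05. Changes on this scale are understated for low genes. edgeR 4.0.16 and DESeq2 1.42.0 on the recovered reads, other pseudocounts, filters and scalings, a replicate block and leaving out each library were alternatives. The code of the fits was run on simulated counts in which no low gene and no small change was set, so the run does not bear on those. Confidence intervals are limma's and rest on the scatter between libraries; limits at 0 cover counting error only. Replicates were not copies of the same reads (chi-square per degree of freedom 1.64 and 1.62). This does not show that they came from separate cultures. The edgeR common coefficient of variation between replicates was 2.15%. Called members with a log2 change of at least 0.4 in size and called adaptors were to be given in full, and up to 4 called genes by adjusted p per pathway list. Members, lists and the rule were chosen with earlier results of these data known; promoters were shown for called members with a mean at least 2-fold higher.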

Additional observations from a re-analysis of the deposited data

How the results depend on the processing

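DESeq2 and the missing trend moved the counts. With DESeq2 on the recovered reads 2174 of all genes were called against 4563, 3 members higher, and 6 signalling genes higher and 4 lower against 12 and 13. With limma without trend 1932 genes were called, 1 member was lower, and 7 signalling genes were higher and 6 lower. The count of members called lower was 2 with DESeq2, and that called higher 4 with limma without trend. TNFRSF11B had passed the filter through the control libraries alone, which favours a fall, and the filter at a mean of 5 CPM left it out. TNFSF15, TNFRSF21 and TNFRSF11B were called under each alternative that tested them, with log2 changes of 1.19 to 1.57, 1.32 to 1.41 and -2.42 to -1.45. EMP2 was called under all 13 (log2 change -2.46 to -2.41, adjusted p up to 0.006). The 9 called members gave 114 values over these alternatives, of which 103 stayed called in the same direction and 11 lost the call. The 20 named signalling and target genes gave 260 values, of which 41 lost the call. For 12 members that were not called the sign changed under some alternatives, without a call (20 values). DESeq2 gave no adjusted p for CD70, TNFRSF11A and TNFRSF6B. The cause of these differences was not tested.

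When 1 library was left out, the calls ran from 3668 to 4088 over all genes, from 5 to 7 members higher and 2 to 4 lower, and from 10 to 13 signalling genes higher and 10 to 13 lower. TRAF3 was called without knockdown replicate 2 (adjusted p = 0.0396) and TRAF7 without knockdown replicate 1 (0.0499). Among members that passed the filter in both groups, a setting added after seeing the data, 5 were higher and 2 lower. This was 23.3% called, against 33.4% of all genes tested. The latter share includes genes that passed through 1 group, and none was computed without them.

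The replicate numbers pair no samples by the labels, and with 2 pairs the deviations of same-numbered libraries did not correlate (r = -0.003 across 13661 genes). With the replicate block 4342 genes were called, 6 members higher and 4 lower; the added member was TNFRSF6B (log2 change -0.90, adjusted p = 0.0479). Depth limits the 24 members below the filter, 15 of which had at most 3 reads in every library.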

Other observations

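Relatives of the family by name, chosen after the values could be seen, were 23 genes, of which 14 were tested, 4 were higher and 2 lower (limma adjusted p under 0.05; 33.4% of all genes were called in either direction). RIPK4, a kinase of keratinocyte differentiation related to RIPK1, had a mean of 49.2 ± 1.00 CPM in control and 76.4 ± 0.104 CPM in knockdown libraries (SD, n = 2) and rose by 0.63 on the log2 scale (limma adjusted p = 3.27e-08), while RIPK2, a kinase of NOD signalling, was at -0.17 without passing the test. C1QTNF6, a secreted protein with a C1q domain, whose fold resembles that of TNF ligands, rose by 0.76 on the log2 scale, with means of 6.74 ± 0.636 CPM in control and 11.7 ± 0.980 CPM in knockdown libraries (SD, n = 2), and its relative C1QTNF1 fell by 0.20 on the log2 scale. TNFAIP6, a TNF-induced hyaluronan-binding protein, fell most, with means of 11.0 ± 0.935 CPM in control and 2.86 ± 0.295 CPM in knockdown libraries (SD, n = 2; log2 change -1.77, limma adjusted p = 1.51e-07). TNFAIP1, a TNF-induced adaptor of a ubiquitin ligase, rose by 0.35 and TRAFD1, a zinc finger protein that dampens innate signalling, by 0.21. The RELT-like genes RELL1 and RELL2 were at 0.36 and -0.14, and the TRAF3 partners TRAF3IP1 and TRAF3IP2 at 0.032 and 0.012; none of these 4 passed (limma adjusted p 0.104 to 0.906).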
